A study of Mus musculus with 13 samples.

Results

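The unsorted day 3 responders were 143 single CD8+ T cells taken from mouse spleen on day 3 of infection, out of 1449 cells in the series. Their members were chosen by the population heading of the deposited table alone, with no measured value used, and the 143 columns equalled the number stated by the submitters. The study followed single OT-1 cells, T cells whose transgenic receptor recognises an ovalbumin peptide, through an infection with Listeria monocytogenes expressing ovalbumin (Lm-OVA). The CD8+ CD45.1+ OT-1 cells had been transferred into congenic CD45.2 C57BL/6J mice 1 day before 5000 colony-forming units were given into the vein, and 20000 cells were transferred for day 3. They were set beside 149 unactivated OT-1 cells (naive), 144 cells of the first division at day 2, from 2000000 transferred cells labelled with the division dye CFSE, and 154 unsorted cells at day 5, from 5000 transferred cells. Every population was 1 sample, so no test was possible, no p-value is given, and a difference between populations cannot be told apart from the number of cells transferred. How many mice were used, the gate for unsorted cells and the array of each cell are unknown from these sources.

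A CD8+ T cell that meets its antigen switches on the growth regulator Myc and Il2ra, the chain that gives the interleukin-2 receptor its high affinity, and may secrete interleukin-2, interferon-gamma (Ifng) and chemokines. Factors of the resting state, such as Klf2, which keeps lymphocytes circulating, are switched off on stimulation. Tcf7 encodes TCF-1, a factor of naive and memory cells, and Tox encodes a nuclear factor known from thymic development and from exhausted T cells. Secretion in activated T cells is known to vary from cell to cell.

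In single cells 94 genes were measured by quantitative PCR with TaqMan assays in 95 rows, Il2 being measured by 2 rows. The deposited value is a log2 amount in PCR cycles, 40 minus the threshold cycle as inferred from the values, and 0 stands for no detection. A transcript was called found in a cell where its value was above 0, and where no cell had it the limit that 3 cells would give is stated, 2.10% of 143 cells. Intervals after a share are exact (Clopper-Pearson) 95% intervals and cover counting error only. Values of different genes are not on 1 scale, so only a gene's own values are compared.

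In the day 3 cells the transcripts of Il2, Ccl3, Ccl4, Xcl1 and Ifng were found together in a minority of cells, and these cells more often held Il2ra, Myc, Irf4 and Irf8 and less often Klf2. The 250 bases before the annotated start of genes in this pattern are shown because NFAT factors, which T cell receptor signalling activates, are known to read the core GGAAA. The sequences are from RefSeq, build GRCm38.p6, 5′ to 3′ on the strand of the gene, and capitals mark each GGAAA or its complement TTTCC:
Il2, chr3:37125955-37126204, minus strand: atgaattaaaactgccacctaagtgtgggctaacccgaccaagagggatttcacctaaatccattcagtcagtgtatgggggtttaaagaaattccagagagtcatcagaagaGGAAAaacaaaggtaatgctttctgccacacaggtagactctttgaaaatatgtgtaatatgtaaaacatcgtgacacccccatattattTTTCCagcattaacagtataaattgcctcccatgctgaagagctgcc
Ccl3, chr11:83649379-83649628, minus strand: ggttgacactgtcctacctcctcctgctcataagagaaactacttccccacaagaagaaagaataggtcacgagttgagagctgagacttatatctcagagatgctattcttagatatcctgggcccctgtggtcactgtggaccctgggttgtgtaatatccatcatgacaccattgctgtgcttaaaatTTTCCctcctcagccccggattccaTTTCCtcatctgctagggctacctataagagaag
Xcl1, chr1:164935523-164935772, minus strand: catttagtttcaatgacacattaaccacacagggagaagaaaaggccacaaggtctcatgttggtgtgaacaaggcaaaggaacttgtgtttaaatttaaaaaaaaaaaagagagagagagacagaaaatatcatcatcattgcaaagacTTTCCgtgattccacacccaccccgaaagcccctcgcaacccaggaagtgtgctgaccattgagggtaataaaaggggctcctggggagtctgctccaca
Ifng, chr10:118440796-118441045, plus strand: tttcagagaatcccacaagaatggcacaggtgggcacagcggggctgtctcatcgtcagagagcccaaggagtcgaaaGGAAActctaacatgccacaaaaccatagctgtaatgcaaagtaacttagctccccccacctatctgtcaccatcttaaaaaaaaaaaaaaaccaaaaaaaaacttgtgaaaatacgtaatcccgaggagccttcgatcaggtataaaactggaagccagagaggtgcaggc
Klf2, chr8:72318812-72319061, plus strand: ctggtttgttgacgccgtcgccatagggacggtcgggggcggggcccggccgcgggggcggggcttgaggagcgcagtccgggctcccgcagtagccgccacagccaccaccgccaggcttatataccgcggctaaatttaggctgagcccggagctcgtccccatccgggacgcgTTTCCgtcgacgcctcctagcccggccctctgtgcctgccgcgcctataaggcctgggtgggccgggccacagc

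The Il2 and Ccl3 windows each held 2 matches, and those of Xcl1, Ifng and Klf2 each held 1. Tcf7, less frequent in cells with Il2, Ccl3 or Ccl4, was also searched, and its windows, not printed, held 2 and 0. No window was available for Ccl4. Klf2 was found in none of the cells with Il2, Ccl3 or Xcl1, so the match was present on both sides of the pattern. Of 32851 RefSeq windows of this length, 55.6% held at least 1 match on either strand and 21.4% held 2 or more, with a median of 1. The letters GGAAA also contain GGAA, the core that ETS factors read. A match is a description of these letters and shows no binding.

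The number of assays found per cell ran from 4 to 29, with quartiles of 14, 16 and 19, against a median of 12 in naive, 18 in first-division and 19 in unsorted day 5 cells. The lowest cell held R18s, Actb, Gapdh and Psmb7 only, and 3 cells had under 10 assays. No cell's values were identical to another's in the 1449 columns. When the columns were split by file order into 71 earlier and 72 later ones, the shares of 5 genes lay at least 20 percentage points apart: Psmb7 (60.6% and 8.33%), Rpl35 (4.23% and 33.3%), Myc (59.2% and 31.9%), Thy1 (45.1% and 20.8%) and Cd69 (36.6% and 13.9%). Of 44 genes with at least 5 cells in both parts, 41 had a higher median value in the later columns, with a median difference of 1.94 cycles. For several co-detections below the counts within the earlier and the later columns are therefore given too.

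**Figure D1:**
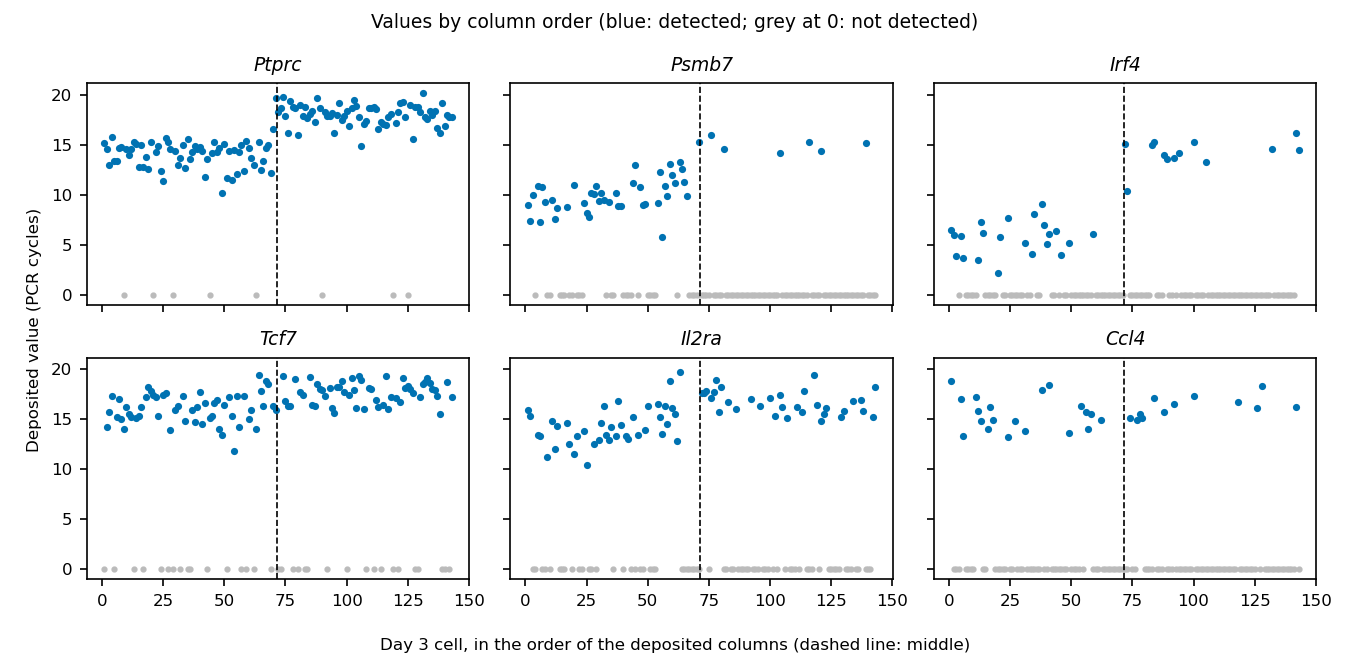
Deposited values (log2 amount, PCR cycles; 0 is not detected) of Ptprc, Psmb7, Irf4, Tcf7, Il2ra and Ccl4 in the 143 day 3 cells, drawn in file order, each point being 1 cell (blue detected, grey not), with a dashed line between the 71 earlier and the 72 later columns. Ptprc had a median of 14.4 before and 18.0 after the line, and Irf4 one of 5.92 and 14.4, while Tcf7, Il2ra and Ccl4 were found on both sides.

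The cells carried lymphocyte transcripts. Ptprc, which encodes CD45, was found in 135 cells (94.4%, 89.3 to 97.6%), Thy1 in 47 (32.9%), and Cd8a, which encodes the CD8 alpha chain, in 39 (27.3%, 20.2 to 35.3%). CD8 protein was among the stains used for sorting, so a missing transcript here does not mean a missing protein. Cd44, encoding an adhesion receptor that was also stained for, was found in 5 cells. Cd4 and Foxp3, of helper and regulatory T cells, were found in 0 of 143 cells (up to 2.10%). Gata3 was found in 2 cells and was not read as a marker of another lineage.

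Few of the 94 genes were shared by most cells. Actb, Gapdh and R18s were found in every cell, 8 genes in all were found in at least 50% of cells, 21 in 20 to 50%, 31 in 5 to 20% and 22 in fewer, and 12 in no cell. Outside the 3 reference genes the widest were Ptprc, Tcf7 in 109 cells (76.2%), and Zfp281, which encodes a zinc finger repressor, in 96 (67.1%, 58.8 to 74.8%). The 12 genes found in no cell included the inhibitory receptor gene Pdcd1, the effector factors Prdm1 and Id2, the memory-associated Hopx and the T cell identity factor Bcl11b. Tbx21 and Klrg1, of effector cells, were each found in 1 cell, and Lag3, another inhibitory receptor, in 1.

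**Figure D2:**
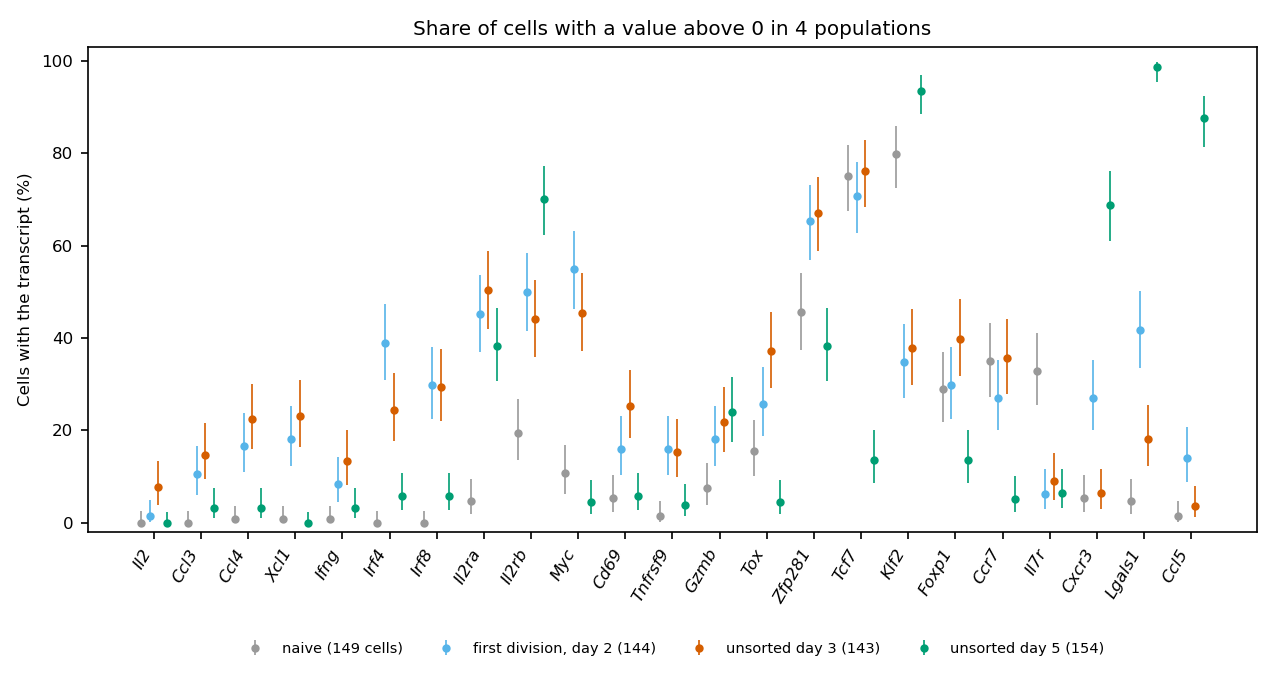
Share of cells (percent) with a transcript in naive, first-division, day 3 and unsorted day 5 cells for the named genes; points are shares, bars exact 95% intervals for counting error, and each population is 1 sample. Tcf7 stood at 76.2% on day 3 and 13.6% on day 5, Il2ra at 4.70% in naive and 50.3% in day 3 cells, and Tox at 37.1% on day 3 and 4.55% on day 5.

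Il2, the growth factor of activated T cells, was found in 11 of 143 day 3 cells (7.69%, 3.90 to 13.3%). Among the 1306 other cells of the series 3 held it, 2 first-division cells and 1 proximal daughter cell. Both rows of the Il2 assay found the transcript in the same 11 cells, and 0 cells had it in 1 row only. The rows differed by a median of 0.67 cycles in these cells, regardless of sign (0.20 to 1.82). The sign followed the column order. The second row minus the first was -0.93 to -0.20 in the 6 earlier cells and 0.52 to 1.82 in the 5 later ones. The mean of both rows ran from 11.6 to 17.9, with a median of 14.8. Of the 11 cells, 6 lay among the earlier columns and 5 among the later.

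The cells with Il2 all carried Il2ra and Myc, and none carried Klf2. Il2ra was found in 11 of 11 cells with Il2 (71.5 to 100%) and 61 of 132 without (46.2%, 37.5 to 55.1%). Myc was found in 11 of 11 and in 54 of 132 (40.9%, 32.4 to 49.8%), and Klf2 in 0 of 11 (up to 28.5% by its interval) and 54 of 132 (40.9%).

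The interferon regulatory factors that antigen receptor signals induce were the most like Il2 in detection. Irf8 was found in 10 of 11 cells with Il2 (90.9%, 58.7 to 99.8%) and 32 of 132 without (24.2%, 17.2 to 32.5%), and Irf4 in 9 of 11 (81.8%) and 26 of 132 (19.7%). By phi, the correlation of 2 yes-or-no detections over the 143 cells, the genes nearest to Il2 were Irf8 (0.39), Irf4 (0.39), Ifng (0.35), Ccl4 (0.35) and Ccl3 (0.33). In the later columns Irf4 and Irf8 were each found in 5 of 5 cells with Il2, and in the earlier ones in 4 and 5 of 6. The lowest values of Irf4 and Irf8 in these cells, 3.51 and 2.74, lay in the earlier columns. With detection only above a value of 16, 5 cells with Il2 were left and the Irf8 difference turned to -2.90 points. Irf8 in those 5 cells ran from 8.56 to 15.1. All of these values lay below that limit, so no co-detection could be counted there.

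Of the 49 genes set against Il2, 20 (40.8%) differed by at least 20 points, 15 found more often in cells with Il2 and 5 less often. Over all 2450 ordered pairs of the 50 genes that were found in at least 10 and missing in at least 10 cells, 11.7% differed by as much, 7.63% higher and 4.08% lower. With 11 cells, each cell moves a share by many points. Of the 4 measured costimulation and activation genes 2 were among them, Cd69, an early activation antigen, in 7 of 11 against 29 of 132 cells and Tnfrsf9, encoding the costimulatory receptor 4-1BB, in 5 of 11 against 17 of 132, while Cd28 stood at 3 of 11 against 26 of 132 and Cd44, in 5 cells, entered no pair. Nfatc1, an NFAT factor that receptor signals induce, was found in 4 of 11 against 10 of 132. Ccr7, the receptor that guides cells into lymph nodes, was found in 1 of 11 against 50 of 132, Foxo1 in 1 of 11 against 41 of 132, and Tcf7 in 6 of 11 (54.5%) against 103 of 132 (78.0%). Psmb7 was also more frequent, in 6 of 11 against 43 of 132, but all 6 lay in the earlier columns, where it was found in 60.6% of all cells.

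The cells with Il2 also had more assays found, a median of 24 (16 to 29) against 16 in the others, and 10 of the 11 lay above the population's median of 16. Within the 70 cells above that median, Irf8 was found in 9 of 10 cells with Il2 against 21 of 60 without, Il2ra in 10 of 10 against 38 of 60, and Klf2 in 0 of 10 against 16 of 60. Actb had a median value of 19.04 in cells with Il2 and 19.3 in those without. These medians were 19.01 and 18.91 among earlier columns, and 19.11 and 19.61 among later ones, so the direction differed. Whether a well held 2 cells was not tested.

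Every cell with Il2 carried at least 1 of Ccl3, Ccl4, Xcl1 and Ifng. Ccl4 was found in 8 of 11 cells with Il2 (72.7%, 39.0 to 94.0%) and 24 of 132 without (18.2%, 12.01 to 25.8%), with 6 of 6 and 14 of 65 among earlier columns and 2 of 5 and 10 of 67 among later ones. Xcl1 was found in 7 of 11 against 26 of 132 cells, Ccl3 in 6 of 11 against 15 of 132, and Ifng in 6 of 11 against 13 of 132. Both cells with all 5 secreted transcripts, cells 2 and 8, lay on opposite sides of the column split. In cell 2 Il2 stood at 12.5, Ccl4 at 16.2, Ccl3 at 18.1, Xcl1 at 13.7 and Ifng at 10.7, and in cell 8 the same genes stood at 17.6, 16.5, 18.8, 14.8 and 14.2. Cell 2 had no Irf4, Irf8 or Tcf7, and cell 8 had Irf4 at 13.7 and Irf8 at 8.56 but no Tcf7.
Other cells show the range. Cell 9 had the fewest assays of the 11, 16, and held Il2 at 14.5 and Ccl4 at 17.3 with none of the other secreted transcripts. Cell 10 held Il2 at 14.8 and Ifng at 15.9 with no chemokine of the 3, and the highest Tcf7 of the 11 at 19.3. Cell 4, with 29 assays, held Il2 at 17.1, Ccl4, Xcl1, Lif at 14.7 and Cxcl10 at 14.4. Lif, a cytokine of the interleukin-6 family, was found in 4 of the 11 cells and in 7 of all 143, and Il3 in 1 of the 11 and 2 of all 143.

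**Figure D3:**
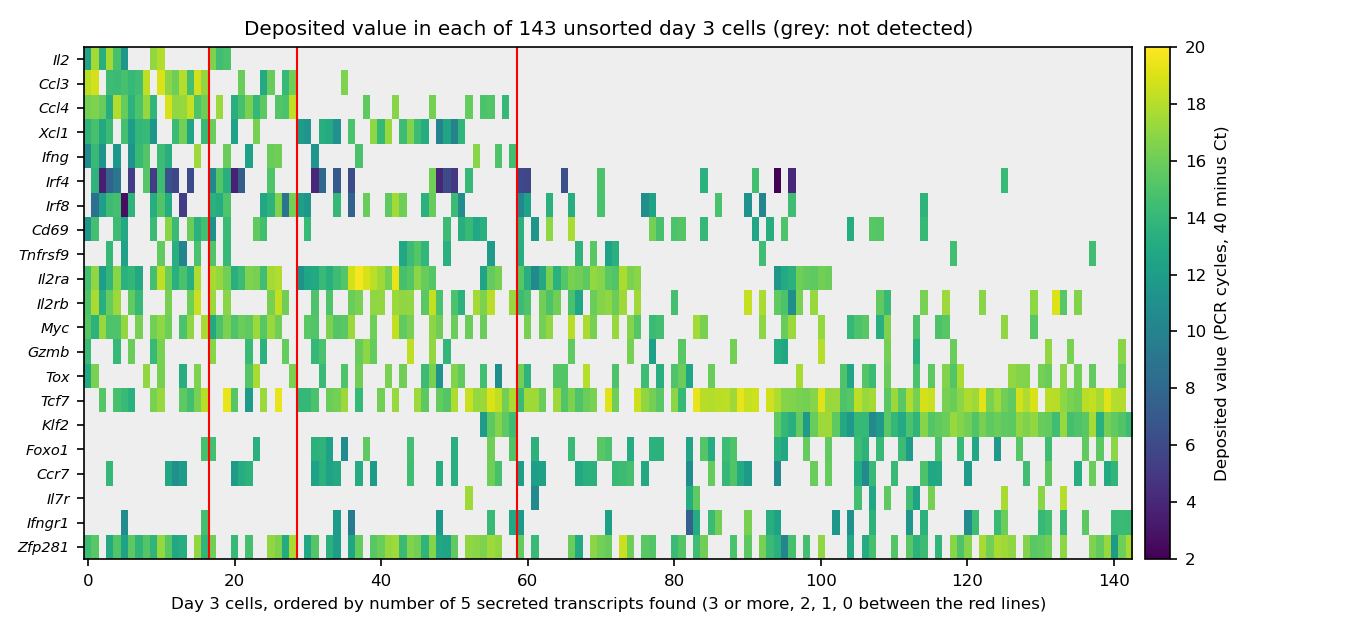
Deposited values (log2 amount, PCR cycles, colour scale; grey is not detected) of named genes in the 143 day 3 cells, 1 column per cell, ordered by how many of Il2, Ccl3, Ccl4, Xcl1 and Ifng were found, with red lines between 3 or more, 2, 1 and 0. The 17 cells with 3 or more of these transcripts hold no Klf2, while 49 of the 84 cells with none of them do.

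Taken over Il2, Ccl3, Ccl4, Xcl1 and Ifng, 84 cells (58.7%) held none, 30 held 1, 12 held 2, 8 held 3, 7 held 4 and 2 held all 5. Xcl1, a chemokine that draws cross-presenting dendritic cells, was the one most often found alone, in 17 cells, against 7 cells with Ccl4 alone, 5 with Ifng alone, 1 with Ccl3 alone and 0 with Il2 alone. At least 1 was found in 59 day 3 cells (41.3%), 47 of 144 first-division cells (32.6%), 3 of 149 naive cells (2.01%) and 14 of 154 unsorted day 5 cells (9.09%). At least 3 were found in 17 day 3 cells (11.9%), 9 first-division cells (6.25%) and 2 of 83 proximal daughter cells, and in 0 cells of the other 10 populations. In the earlier day 3 columns 12 cells held at least 3, and in the later ones 5.

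Cells that held more of the 5 secreted transcripts more often held Il2ra, Irf4 and Irf8 and less often Klf2. Klf2 was found in 49 of 84 cells with none of them (58.3%, 47.1 to 69.0%), 5 of 30 cells with 1 (16.7%), 0 of 12 with 2 and 0 of 17 with 3 or more (up to 19.5% by its interval). Il2ra was found in 25 of 84 (29.8%, 20.3 to 40.7%), 22 of 30 (73.3%), 10 of 12 and 15 of 17 (88.2%, 63.6 to 98.5%). Irf4 was found in 10.7%, 30%, 50.0% and 64.7% of these cells, and Irf8 in 14.3%, 40%, 66.7% and 58.8%. The largest step for Il2ra and Klf2 lay between no secreted transcript and 1.

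Genes of the resting or memory state did not all follow Klf2. Foxo1, the forkhead factor that sustains Klf2 and Il7r, was found in 35.7% of cells with none, 30% with 1, 16.7% with 2 and 5.88% with 3 or more. Tcf7 was found in 86.9%, 70.0%, 41.7% and 58.8%, so 10 of the 17 cells with 3 or more still held it. Eomes, a T-box factor of effector and memory cells, was found in 19 of 84, 8 of 30, 1 of 12 and 1 of 17 cells. Tox was found in 38.1%, 40%, 25% and 35.3%, with intervals, for counting error only, that overlapped throughout. The median number of assays in these cells was 15, 18, 17 and 22, and its part in these shares was not tested.

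**Figure D4:**
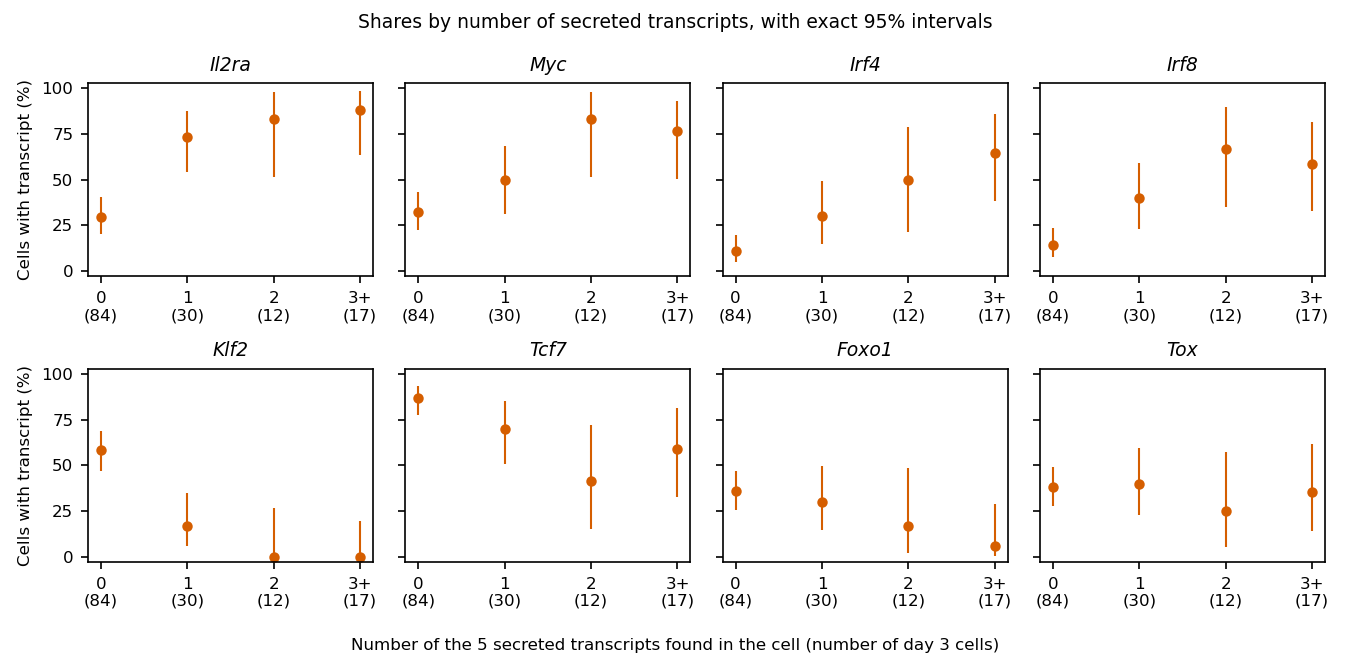
Share of day 3 cells (percent) with each named transcript against the number of secreted transcripts found (Il2, Ccl3, Ccl4, Xcl1, Ifng; 84, 30, 12 and 17 cells); bars are exact 95% intervals for counting error. Il2ra stands at 29.8% with none and 88.2% with 3 or more, Klf2 at 58.3% and 0%, and Tox at 38.1% and 35.3%.

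Ccl4 and Ccl3, which encode neighbouring inflammatory chemokines, had the highest phi of all pairs of the 50 genes, 0.63. Ccl4 was found in 32 cells (22.4%, 15.8 to 30.1%) with values from 13.2 to 18.9 and a median of 15.7, and Ccl3 in 21 cells (14.7%) with values from 13.0 to 18.96 and a median of 16. Ccl3 was found in 18 of the 32 cells with Ccl4 (56.2%, 37.7 to 73.6%) and 3 of the 111 without (2.70%, 0.561 to 7.70%). Among earlier columns the counts were 13 of 20 and 1 of 51, in the later ones 5 of 12 and 2 of 60. First-division cells showed the same direction, 9 of 24 and 6 of 120.

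Ccl4 differed by at least 20 points for 14 of its 49 partners (28.6%), 11 higher and 3 lower in cells with Ccl4. Il2ra was found in 26 of 32 cells with Ccl4 (81.2%, 63.6 to 92.8%) and 46 of 111 without (41.4%, 32.2 to 51.2%), Myc in 23 of 32 (71.9%) and 42 of 111 (37.8%), and Xcl1 in 15 of 32 (46.9%) and 18 of 111 (16.2%). The lower ones were Klf2, found in 3 of 32 (9.38%, 1.98 to 25.02%) and 51 of 111 (45.9%, 36.4 to 55.7%), Foxo1 in 4 of 32 and 38 of 111, and Tcf7 in 18 of 32 (56.2%) and 91 of 111 (82.0%). Within the 73 cells at or below the median number of assays Il2ra stood at 7 of 10 and 17 of 63, and within the 70 above it at 19 of 22 and 29 of 48.

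Ccl3 and Xcl1 set the cells apart from Klf2 without exception among these 143 cells. Klf2 was found in 0 of 21 cells with Ccl3 (up to 16.1% by its interval) and 54 of 122 without (44.3%), and in 0 of 33 with Xcl1 (up to 10.6%) and 54 of 110 without (49.1%, 39.4 to 58.8%). In first-division cells some cells held both, 4 of 15 with Ccl3 and 2 of 26 with Xcl1. Ifng was found in 19 cells (13.3%, 8.19 to 20.0%), in 10 of 21 with Ccl3 and 9 of 122 without. Ccl3 had 13 of 49 partners (26.5%) at least 20 points apart and Xcl1 11 of 49 (22.4%). Of the other measured members of the secreted list, Ccl5 was found in 5 cells and Cxcl10, a chemokine that interferons induce, in 10. Cxcl10 was found in 0 of 21 cells with Ccl3 (up to 16.1% by its interval) against 10 of 122 without. It was in 1 of 32 with Ccl4 against 9 of 111, and 1 of 11 with Il2 against 9 of 132. These cells are too few to place Cxcl10 in or outside the pattern. In first-division cells it was more frequent, in 4 of 15 with Ccl3 against 16 of 129, and 6 of 24 with Ccl4 against 14 of 120. Xcl1 itself was found in 27 of 72 cells with Il2ra (37.5%) and 6 of 71 without (8.45%).

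**Figure D5:**
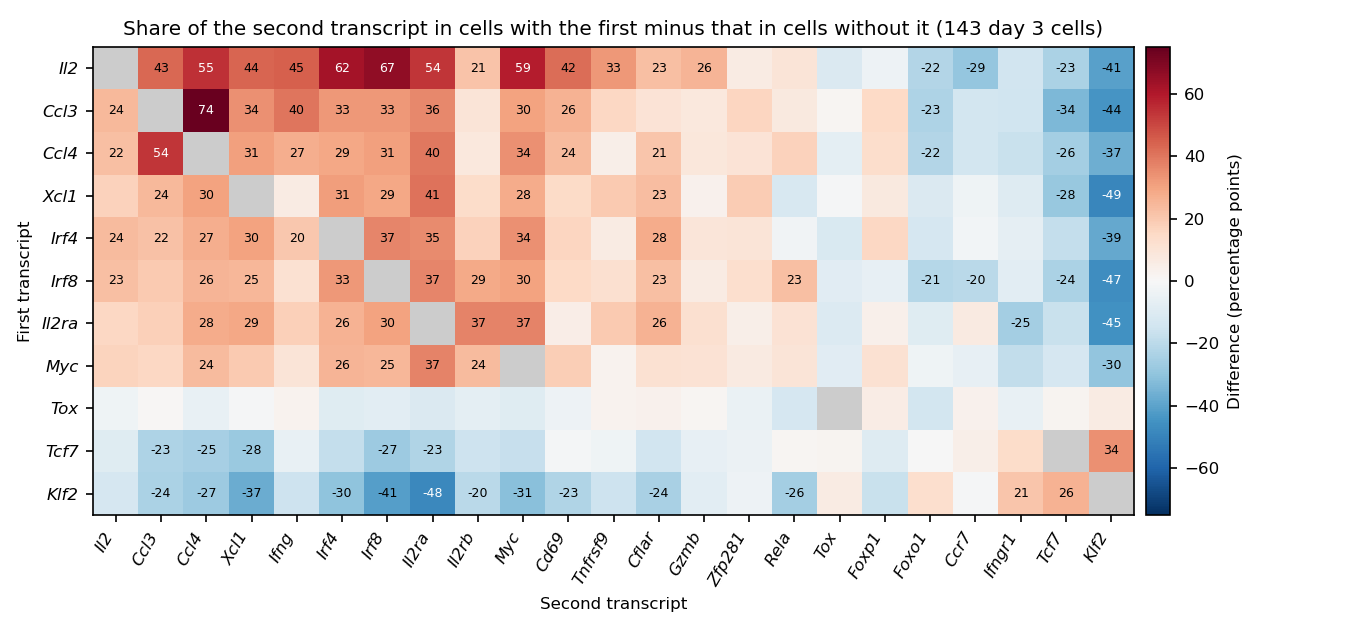
Difference in share (percentage points) of each partner transcript between day 3 cells with and without the transcript named on each row; red is higher and blue lower in cells with it, and differences of at least 20 points are printed. Klf2 is lower in cells with Il2, Ccl3, Ccl4, Xcl1, Irf4, Irf8, Il2ra or Myc, and the Tox row stays within 13.7 points of 0.

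Il2ra divided the population almost evenly, in 72 cells (50.3%, 41.9 to 58.8%) and missing in 71, with values from 10.5 to 19.7 and a median of 15.5. Il2rb, the receptor's signalling beta chain, was found in 45 of 72 cells with Il2ra (62.5%, 50.3 to 73.6%) and 18 of 71 without (25.4%, 15.8 to 37.1%). By contrast, Klf2 was found in 11 of 72 (15.3%, 7.88 to 25.7%) and 43 of 71 (60.6%, 48.3 to 71.97%). Ifngr1, a chain of the interferon-gamma receptor, was found in 7 of 72 (9.72%) and 25 of 71 (35.2%), and Cflar, which restrains death receptor signals, in 27 of 72 (37.5%) and 8 of 71 (11.3%). Of its 49 partners 11 (22.4%) were at least 20 points apart, 8 higher and 3 lower. The Klf2 difference lay on the same side among earlier columns (4 of 40 and 18 of 31) and later ones (7 of 32 and 25 of 40). First-division cells showed the same direction, 14 of 65 and 36 of 79. Day 3 cells with Il2ra had a median of 18.5 assays found, and those without 15.

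Myc was found in 65 cells (45.5%), with values from 12.9 to 18.3 and a median of 16.04. It was found in 46 of 72 cells with Il2ra (63.9%, 51.7 to 74.9%) and 19 of 71 without (26.8%, 16.9 to 38.6%), and first-division cells gave 49 of 65 and 30 of 79. The day 3 counts were 29 of 40 and 13 of 31 among earlier columns and 17 of 32 and 6 of 40 among later ones. The transcripts were nonetheless separable: 26 cells held Il2ra alone of these genes, 19 held Myc alone, 46 both and 52 neither. In the 46 cells with both, the amounts had a Spearman rank correlation of 0.12 across cells of 1 sample. It was 0.08 in the 29 earlier and 0 in the 17 later columns. After the Actb value of each cell was subtracted from both it was 0.35, but the same Actb value then enters both amounts. Myc had 7 of 49 partners (14.3%) at least 20 points apart, with Klf2 in 14 of 65 cells with Myc (21.5%) and 40 of 78 without (51.3%). Among earlier columns these counts were 11 of 42 and 11 of 29, and among later ones 3 of 23 and 29 of 49.

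Irf4 and Irf8 were found in 35 and 42 cells and together in 20. Irf8 was found in 20 of 35 cells with Irf4 (57.1%, 39.4 to 73.7%) and 22 of 108 without (20.4%, 13.2 to 29.2%). Klf2 was found in 2 of 42 cells with Irf8 (4.76%, 0.582 to 16.2%) and 52 of 101 without (51.5%, 41.3 to 61.6%), and in 3 of 35 with Irf4 and 51 of 108 without. Irf4 had 11 of 49 partners (22.4%) and Irf8 14 of 49 (28.6%) at least 20 points apart. Irf4 values ran from 2.12 to 16.1, and only 8.39% of cells had it above 12, so its shares rest largely on low values of the earlier columns.

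Tcf7 was carried by 109 cells (76.2%, 68.4 to 82.9%), with values from 11.8 to 19.4 and a median of 17.2. Few of its partners differed: of 49, 6 (12.2%) were at least 20 points apart, 1 higher and 5 lower, which is near the 11.7% of all pairs. Irf8 was found in 25 of 109 cells with Tcf7 (22.9%, 15.4 to 32.0%) and 17 of 34 without (50.0%, 32.4 to 67.6%), Ccl4 in 18 of 109 (16.5%) and 14 of 34 (41.2%), Xcl1 in 18 of 109 (16.5%) and 15 of 34 (44.1%), and Il2ra in 49 of 109 (45.0%) and 23 of 34 (67.6%). The Irf8 counts were 18 of 55 and 6 of 16 among earlier columns, and 7 of 54 and 11 of 18 among later ones, so most of the pooled difference came from the later columns. The Il2ra difference was also larger there. Tcf7 was found in 30 of 40 cells with Il2ra and 25 of 31 without among earlier columns. Among later ones it was found in 19 of 32 and 35 of 40. Klf2 itself was in 50 of 109 (45.9%, 36.3 to 55.7%) and 4 of 34 (11.8%, 3.30 to 27.5%). Myc and Irf4 did not reach 20 points, with Myc in 45 of 109 and 20 of 34 cells and Irf4 in 22 of 109 and 13 of 34. In first-division cells Klf2 was found in 36 of 102 cells with Tcf7 and 14 of 42 without, and Irf8 in 30 of 102 and 13 of 42, differences of 1.96 and -1.54 points. There Tcf7 was found in 46 of 65 cells with Il2ra and 56 of 79 without. The difference between these populations was not tested.

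Split by Tcf7 and Klf2 together, the largest class held Tcf7 without Klf2, and many of its cells carried the activation genes. In the 50 cells with both factors, at least 1 of the 5 secreted transcripts was found in 5 (10%, 3.33 to 21.8%), Il2ra in 11 (22.0%) and Irf8 in 2 (4.00%). In the 59 cells with Tcf7 alone they were found in 31 (52.5%, 39.1 to 65.7%), 38 (64.4%) and 23 (39.0%). In the 30 cells with neither they were found in 23 (76.7%, 57.7 to 90.0%), 23 (76.7%) and 17 (56.7%). For the secreted transcripts, the interval of cells with both factors lies below those of cells with Tcf7 alone and with neither, and the intervals of cells with Tcf7 alone and with neither overlap. These intervals cover counting error within 1 sample only and are no test, so the overlap does not show that the last classes are alike. The 4 cells with Klf2 alone held none of these, too few to place them (up to 60.2% by the interval). The median number of assays was 14, 18 and 17 in the 3 larger classes.

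Above the median number of assays the Tcf7 difference in Klf2 was 12.2 points (13 of 49 and 3 of 21 cells), and at or below it 54.0 points (37 of 60 and 1 of 13). Klf2 itself was found in 54 cells (37.8%), with values from 10.5 to 17.7 and a median of 15.5, and had 15 of 49 partners (30.6%) at least 20 points apart, 3 higher and 12 lower. Cells with Klf2 had a median of 14 assays and those without 17. The Il2ra share was lower in cells with Klf2 on both sides of the median number of assays, 5 of 16 against 43 of 54 above it and 6 of 38 against 18 of 35 at or below it.

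Tox was found in 53 cells (37.1%, 29.1 to 45.5%), with values from 11.0 to 18.0 and a median of 15.8. Over all 143 cells it set no gene entering the pairs apart by 20 points. None of its 49 partners (0%) reached that size, and the differences ran from -13.7 points for Foxo1 (11 of 53 cells against 31 of 90) to 13.7 for Thy1 (22 of 53 against 25 of 90). Il2ra was found in 23 of 53 cells with Tox (43.4%, 29.8 to 57.7%) and 49 of 90 without (54.4%, 43.6 to 65.0%), and both Tox and Tcf7 were found in 41 cells. Among earlier columns alone Il2ra was found in 13 of 30 cells with Tox and 27 of 41 without, a difference of -22.5 points, and among later ones in 10 of 23 and 22 of 49. Some pooled differences joined opposite directions. Irf8 was found in 6 of 30 and 18 of 41 cells among earlier columns, and 7 of 23 and 11 of 49 among later ones. Ccl3 stood at 3 of 30 and 11 of 41, then 5 of 23 and 2 of 49. Ccl4 stood at 5 of 30 and 15 of 41, then 5 of 23 and 7 of 49. Earlier columns also gave Thy1 in 17 of 30 and 15 of 41, and Tnfrsf1b in 6 of 30 and 0 of 41. Above the median number of assays Rela was found in 9 of 28 and 26 of 42 cells. Cd8a there stood at 13 of 28 and 9 of 42, and Foxo1 at 4 of 28 and 16 of 42. At or below it Myc was found in 4 of 25 and 18 of 48. In first-division cells Cd28 was found in 24 of 37 cells with Tox and 33 of 107 without, and Eomes in 23 of 37 and 37 of 107. The genes nearest to Tox by phi were Stat4 (0.15), Thy1 (0.14), Tcf12 (0.13), Cd28 (0.12) and Cd8a (0.12). Pdcd1 was found in 0 of the 143 cells and Lag3 in 1, so Tox could not be set against these inhibitory receptors.

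Against naive cells 9 of 94 genes were at least 20 points more frequent at day 3 (9.57%) and 3 less frequent (3.19%), where columns of the day 3 population itself gave 5 genes between earlier and later ones. Irf8, at 29.4%, and Irf4, at 24.5%, were in 0 of 149 naive cells (up to 2.01%). Xcl1 stood at 23.1% (16.4 to 30.9%) and 0.671% of naive cells, Tox at 37.1% and 15.4% (10.04 to 22.3%), and Zfp281 at 67.1% and 45.6% (37.5 to 54.0%). The others were Il2ra, Myc, Il2rb and Ccl4. The less frequent ones included Klf2 (37.8% against 79.9%) and Il7r, the interleukin-7 receptor of resting cells (9.09% against 32.9%). Of the 12 measured genes of the naive and memory list 3 were less frequent and 0 more frequent, and both Ccr7 (35.7% and 34.9%) and Foxo1 (29.4% and 23.5%) stayed within 20 points.

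Against first-division cells 0 of 94 genes were at least 20 points more frequent (0%) and 5 less frequent (5.32%), of which 4 are named here. Cd8a was found in 27.3% of day 3 and 60.4% of first-division cells (51.9 to 68.5%), and Lgals1, encoding galectin-1, in 18.2% and 41.7%. Eomes was found in 20.3% and 41.7%, and Cxcr3, a chemokine receptor of effector cells, in 6.29% and 27.1%. The activation genes lay within 20 points, with Myc at 45.5% and 54.9%, Irf4 at 24.5% and 38.9% and Il2ra at 50.3% and 45.1%.

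Against unsorted day 5 cells 9 of 94 genes were more frequent (9.57%) and 12 less frequent (12.8%). Tcf7 was found in 76.2% of day 3 and 13.6% of day 5 cells (8.64 to 20.1%), Myc in 45.5% and 4.55%, Ccr7 in 35.7% and 5.19%, Foxp1, a forkhead factor of resting cells, in 39.9% and 13.6%, and Xcl1 in 23.1% and 0 of 154 (up to 1.95%). Tox, Zfp281 and Irf8 were also more frequent. The reverse held for Ccl5, a chemokine of effector and memory cells (3.50% and 87.7%), Lgals1 (18.2% and 98.7%), Cxcr3 (6.29% and 68.8%) and Klf2 (37.8% and 93.5%), and for Ifngr1, Thy1, Cd8a, Zeb2, Il2rb, Cd28 and Prdm1. Of the 5 effector factors on the fixed list Zeb2 and Prdm1 were less frequent, at 5.59% and 0 of 143 cells against 31.8% and 20.8%, and of the 12 naive and memory genes 4 were more and 1 less frequent. Klf2 was thus found in fewer day 3 cells than in naive and in day 5 cells.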

How the data were processed

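Single cells were sorted into a reverse transcription and preamplification mix, amplified for 18 cycles, diluted 5-fold and read on Fluidigm dynamic arrays, per the labels' protocols. The deposited table holds log2 amounts on the scale of PCR cycles for 95 assay rows. The labels call them Ct, not normalized, but they grow with the amount of RNA, and any filter by the authors is not given in the sources used here. Of the rows 93 were matched to RefSeq by accession, and other names are those of the file. The 2 rows of Il2 were merged (found by either row, mean value), which left 94 genes.

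Each population is 1 sample, so differences are given by size: called at 20 percentage points, in pairs of genes found in at least 10 and missing in at least 10 cells. Shares have exact intervals from scipy. The sample of 143 cells limits the precision. Text names the 6 markers (Il2ra, Myc, Tcf7, Tox, Ccl4 and Il2), members of 15 gene lists, the 12 largest differences in each direction per comparison, the 8 largest per co-detection partner list, the 5 genes most like Il2, Ccl4, Tcf7 and Tox by phi, and genes listed as found in all or no cells. The members and lists were chosen with earlier results of these data known. Totals include some genes that are not named here. Alternatives were detection only above a value of 12, 14 or 16, cells with at least 10 assays, the earlier or later columns, cells on either side of the median number of assays, other size limits, and mean levels. The scripts ran in Python 3.11.15 with scipy 1.17.1, numpy 2.4.6 and matplotlib 3.10.9. Promoters are RefSeq windows of GRCm38.p6, and the files name no build.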

Additional observations from a re-analysis of the deposited data

How the results depend on the processing

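The 16 co-detections of at least 20 points that were followed kept their direction under every alternative tried except 1. They had already reached that size in these same cells, where 287 of all 2450 ordered pairs (11.7%) did. Each alternative reuses these cells or a part of them, so a kept direction is no independent support. With detection only above a value of 16, Irf8 by Il2 turned to -2.90 points, with 5 Il2 cells left. Every Irf8 value in those cells lay below 16, so none could be counted with Irf8. Of the 16 co-detections, those still at 20 points or more numbered 15 with detection above 12, 14 above 14 and 4 above 16. They numbered 16 with at least 10 assays, 13 in the earlier and 16 in the later columns. In cells at or below and above the median number of assays they numbered 16 and 11. At or below that median only 1 cell held Il2, and 5 of the 16 rest on that cell. All values here come from 143 cells. Ccl4 by Il2 moved to 19.7 points above 14, 10.6 above 16, 78.5 in the earlier columns and, from that 1 cell, 87.5 in cells with few assays. Il2ra by Ccl4 moved to 23.7 above 14, 16.3 above 16, 43.0 in cells with few assays and 25.9 in cells with many. Klf2 by Tcf7 moved to 14.7 above 16, 54.0 in cells with few assays and 12.2 in cells with many. Il2ra by Tox, with no call, moved to 2.06 above 14, 12.8 above 16, -22.5 in the earlier columns, and -13.5 and -13.1 in cells with few and many assays. Genes higher than in naive cells numbered 3 above 14, above 16 and by either mean level, 19 at 10 points and 2 at 30, and 1 was lower at 30. Against first-division cells 3 were lower above 16, 13 at 10 points and 1 at 30, and 1 was higher at 10 points. By centred mean level 1 was higher and 1 lower. Against day 5 cells 4 were higher and 7 lower above 16, 16 and 20 at 10 points, 5 higher at 30 points, and 6 lower by centred mean level. Ordered pairs higher and lower numbered 87 and 48 above 14, 43 and 3 above 16, 61 and 28 at 30 points, and 102 and 56 among genes in at least 20 cells and missing in at least 20. Stricter limits leave fewer detections and genes, and the other causes were not tested. No paired analysis was possible because each population is 1 sample.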

Other observations

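In cells that held both transcripts of a pair, the amounts are described by their rank correlation over cells of 1 sample. The rank correlation was 0.37 for Ccl4 and Ccl3 (18 cells; 0.47 in 13 earlier and -0.70 in 5 later columns). It was 0.54 for Il2ra and Il2rb (45 cells), and 0.17 and 0.28 within the earlier and later columns, so the pooled value moved with the column position. For Tcf7 and Klf2 it was 0.40 (50 cells; 0.23 and 0.41). With the Actb value of each cell subtracted from both amounts the pooled values were 0.54, 0.54 and 0.55 for these pairs. The same Actb value then enters both amounts of a pair.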
